A study of Mus musculus with 6 samples.

Results

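The 39 Hox genes of the mouse were followed in cultured fibro-adipogenic progenitors, stromal cells that lie between muscle fibres and can form matrix-producing or fat-storing cells. They were chosen by symbol, as every row of the table named Hoxa, Hoxb, Hoxc or Hoxd with a paralog number, and they made up 39 of 41388 rows. Of these, 32 had enough counts to enter the test. One group of cells received 500 nM prostaglandin E2 (PGE2), a lipid mediator, and the other received vehicle, each given daily for 2 days, with 3 libraries per group. All cells were primary cultures from muscle of male wild-type mice, grown with 10% serum and 2.5 ng/mL human FGF. The labels name no muscle or limb. They also leave unstated whether each library is its own mouse or dish, and the p-values below therefore rest on a spread that may be technical.

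Hox genes encode transcription factors that bind DNA through a homeodomain and give cells their address along the body axis and the limbs. In mammals they lie in the HoxA, HoxB, HoxC and HoxD clusters, where low paralog numbers are switched on early and toward the head, and high numbers late and toward the tail and the limb tip. Fibroblasts of the adult keep much of the Hox code of the site where they arose, which makes the set of active Hox genes a record of position. The proteins act with cofactors of the Pbx, Meis and Pknox families, and Polycomb and trithorax complexes hold their genes silent or active.

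Paralog group 10 held the highest gene of the family, Hoxc10, and another of its 3 leading genes, Hoxa10, while its remaining member Hoxd10 stayed under 1 CPM in every library. Their homeoboxes, the stretch of 180 bases that encodes the homeodomain, are shown to let these paralogs be compared. Capitals mark bases that differ from Hoxc10, and each sequence runs 5′ to 3′ on the coding strand, from the GENCODE transcripts of GRCm38.
Hoxc10: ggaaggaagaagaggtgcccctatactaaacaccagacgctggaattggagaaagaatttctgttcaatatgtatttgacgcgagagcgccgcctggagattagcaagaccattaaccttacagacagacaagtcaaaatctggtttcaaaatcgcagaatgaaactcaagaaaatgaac
Hoxa10: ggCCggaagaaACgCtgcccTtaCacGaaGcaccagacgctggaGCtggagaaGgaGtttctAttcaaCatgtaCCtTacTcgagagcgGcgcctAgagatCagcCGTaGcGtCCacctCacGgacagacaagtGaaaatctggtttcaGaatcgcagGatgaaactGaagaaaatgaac
Hoxd10: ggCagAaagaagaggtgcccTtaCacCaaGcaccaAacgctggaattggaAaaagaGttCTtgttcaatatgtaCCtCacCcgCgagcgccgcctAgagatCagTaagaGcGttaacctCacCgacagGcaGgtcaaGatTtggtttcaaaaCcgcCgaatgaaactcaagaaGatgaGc
The Hoxc10 homeobox lies in exon 2 at chr15:102970848-102971027 (plus strand), that of Hoxa10 in exon 2 at chr6:52232554-52232733 (minus strand), and that of Hoxd10 in exon 2 at chr2:74694141-74694320 (plus strand). Hoxa10 differed from Hoxc10 at 35 of 180 bases and Hoxd10 at 31 of 180. The longest run identical to Hoxc10 at the same place was 14 bases in Hoxa10 and 16 bases in Hoxd10. Over all 741 pairs of the 39 homeoboxes, the longest such run was 52 bases, against reads of 100 bases at each end of a fragment.

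Library totals were 45811389, 52730962 and 38150216 counts under PGE2 and 41988251, 21006044 and 42708381 counts under vehicle, and 3 counts stood for 0.0582 to 0.142 CPM, the unit used here for counts scaled to a common library size. All 12 progenitor markers listed for this tissue were above 1 CPM in every library, Pdgfra between 1122 and 1455 CPM. A paired fit, described below, compares libraries within each number. It called 4 of these 12 markers higher and 5 lower, against 6.91% and 7.51% of all tested genes. Cells of the muscle lineage were also present: 10 myogenic markers summed to 145.9, 20.3 and 21.1 CPM in PGE2 libraries 1 to 3 and to 218, 68.3 and 43.4 CPM in vehicle libraries 1 to 3. Of the myogenic markers 3 of 10 were above 1 CPM in every library, and the stem cell genes Pax7 and Myf5 reached at most 0.116 CPM. Marker sums were 61.7 to 111.6 CPM under PGE2 and 85.0 to 152.4 CPM under vehicle for 8 pericyte genes. For 6 endothelial genes they were 18.9 to 33.0 CPM under PGE2 and 21.0 to 46.5 CPM under vehicle, and for 5 tendon genes 12.5 to 25.4 CPM under PGE2 and 14.1 to 32.5 CPM under vehicle, so the ranges of these 3 lists overlapped between groups. Within same-numbered libraries the myogenic, pericyte, endothelial and tendon sums were each lower under PGE2 in 3 of 3 pairs. In that paired fit 6 of 8 tested myogenic, 4 of 8 pericyte, 1 of 4 tested endothelial and 1 of 5 tendon markers fell. Of all tested genes 7.51% fell. With a length correction added, described below, the fit called 4 myogenic, 1 pericyte, 1 endothelial and 1 tendon marker lower, against 7.97% of all. The 6 macrophage genes summed to 11.5 to 12.3 CPM under PGE2 and 8.57 to 9.22 CPM under vehicle, and the 5 Schwann cell genes to 4.24 to 5.10 CPM under PGE2 and 6.91 to 8.09 CPM under vehicle, without overlap in either list. In the paired fit 2 of 3 tested macrophage markers rose and 2 of 3 tested Schwann cell markers fell. The shares of all tested genes were 6.91% higher and 7.51% lower. With the length correction added, 1 macrophage marker rose and 2 Schwann cell markers fell. That fit called 1339 of all 15186 tested genes higher and 7.97% lower. In each of these 2 lists 1 gene was at 0 counts in every library. The part of such cells in the Hox levels was not tested. In such bulk samples, fewer cells of a type and less RNA per cell cannot be told apart.

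The progenitors carried a HoxC and HoxA code with its peak at paralog number 10. A gene was counted as expressed when it reached 1 CPM in every library, and 23 of 39 did so. These were all 9 HoxC genes, 8 of 11 HoxA genes, 4 of 10 HoxB genes and 2 of 9 HoxD genes. To compare genes, levels were divided by the length of their merged exons and are given as CPM per kb. On that scale HoxC held 63.0% ± 1.34 of the summed Hox level under PGE2 and 64.4% ± 0.596 under vehicle (SD, n = 3 each). HoxA held 29.7% ± 0.364 under PGE2 and 28.5% ± 0.593 under vehicle. HoxB held between 2.64% and 3.58% and HoxD between 3.46% and 4.84% across the 6 libraries, so these clusters together supplied a small part of the total in either group.

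**Figure D1:**
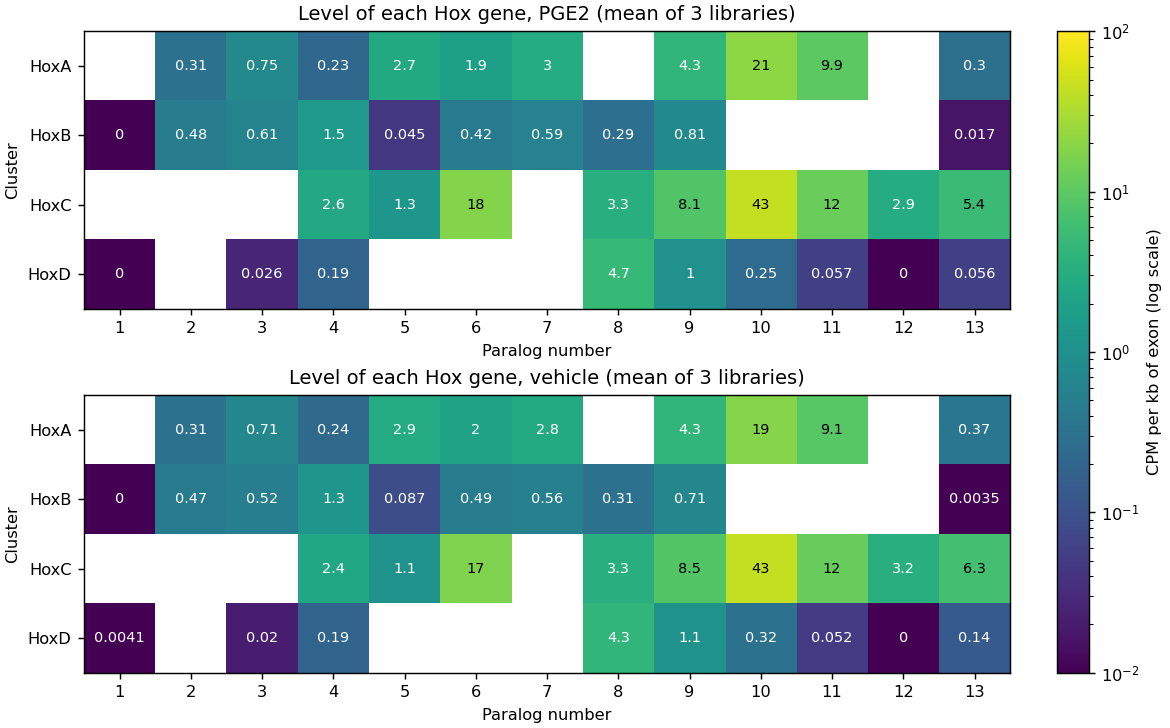
Mean level of each Hox gene in CPM per kb of exon (printed in each cell, colour on a log scale clipped at 0.01) by cluster and paralog number, under PGE2 above and under vehicle below, with blank cells where no gene is shown. The highest cells are Hoxc10, Hoxa10 and Hoxc6 in both panels, and in HoxB and HoxD only Hoxd8, Hoxb4 and Hoxd9 average above 1.

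By paralog number, groups 9 to 13 act from the rib cage to the tail and in the limbs. They held 72.1%, 70.8% and 71.3% of the summed level in PGE2 libraries 1 to 3. In vehicle libraries 1 to 3 they held 71.9%, 70.8% and 72.5%. The groups overlapped, and the exact two-sided permutation test of this share gave p = 0.7, where 3 against 3 libraries allow no less than 0.1. Group 10 alone held 41.7% ± 0.427 under PGE2 and 41.2% ± 0.451 under vehicle (SD, n = 3 each). Groups 4 to 8 held 25.5% to 27.0% across the 6 libraries and groups 1 to 3, the hindbrain and neck numbers, 2.01% to 2.29%. The summed level of all 39 genes was 154, 156 and 148 CPM per kb in PGE2 libraries 1 to 3, against 147, 148 and 152 in vehicle libraries 1 to 3 (exact permutation p = 0.3, two-sided). These ranges overlapped.

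In the HoxC cluster, on chromosome 15 at 102921103 to 103036852 of mm10, all 9 genes reached 1 CPM in every library. Hoxc10, which in mouse acts in the lumbar spine and the hindlimb, had 84.7, 83.7 and 75.9 CPM in PGE2 libraries 1 to 3, against 82.4, 80.7 and 80.8 CPM in vehicle libraries 1 to 3. These values overlapped, and Hoxc10 alone made 26.9% to 29.4% of the summed Hox level per kb in a library. Hoxc6, a gene of the thoracic region, had 45.4, 44.4 and 38.8 CPM under PGE2 and 37.9, 42.9 and 40.7 CPM under vehicle. Over all libraries, Hoxc6 was at 17.3 CPM per kb, while Hoxc8, also a thoracic gene, was at 3.32 CPM per kb. Hoxc11 had 24.4, 25.3 and 25.4 CPM under PGE2 and 22.7, 21.2 and 26.7 CPM under vehicle, so vehicle library 3 was the highest of the 6. Hoxc13, which in mouse is needed for hair and nails and marks the end of the cluster, was present at 15.2, 13.05 and 11.7 CPM under PGE2, against 17.5, 14.9 and 14.2 CPM under vehicle. The lowest HoxC gene per kb was Hoxc5, at 1.19 CPM per kb. Of its exon bases 5.37% are shared with Hoxc10 on the same strand, so whether Hoxc5 itself was active is uncertain.

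The HoxA cluster, on chromosome 6 at 52155590 to 52260880, was expressed at 8 of its 11 genes, and Hoxa2, Hoxa4 and Hoxa13 were under 1 CPM in at least 1 library. Hoxa10, which patterns the lumbar spine and the reproductive tract, had 64.9, 70.8 and 69.2 CPM in PGE2 libraries 1 to 3, against 55.1, 62.8 and 64.4 CPM in vehicle libraries 1 to 3. Every PGE2 library was above every vehicle library, by a narrow margin between PGE2 library 1 and vehicle library 3. Hoxa11, a gene of the forearm and lower leg segment, had 22.9, 22.6 and 22.5 CPM under PGE2 and 20.1, 21.2 and 21.1 CPM under vehicle, and these groups also did not overlap. Hoxa9 had 24.5, 23.2 and 23.7 CPM under PGE2 and 23.2, 23.3 and 24.8 CPM under vehicle, which overlapped. Hoxa13, the gene of the hand and foot, was at 1.12, 0.620 and 0.517 CPM under PGE2 and 0.907, 1.14 and 0.670 CPM under vehicle. Its level per kb over all libraries was 0.335, against 9.50 for Hoxa11 next to it. At the same end of HoxC, Hoxc13 was at 5.86 CPM per kb, against 12.0 for Hoxc11.

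HoxB, on chromosome 11 at 96194316 to 96368256, was low throughout. Its highest member per kb was Hoxb4, which acts in the neck region and in blood stem cells, with 3.29, 3.76 and 4.35 CPM under PGE2 and 3.63, 2.84 and 3.37 CPM under vehicle. Hoxb9, a gene of the rib cage, had 2.28, 1.82 and 2.18 CPM under PGE2 and 1.91, 1.37 and 2.22 CPM under vehicle. Hoxb7 was near the threshold, with 0.754, 0.814 and 1.14 CPM under PGE2 and 1.12, 0.710 and 0.763 CPM under vehicle. In all 3 genes the groups overlapped. Hoxb1, the gene of the fourth segment of the hindbrain, was at 0 counts in every library, and Hoxb13, a gene of the tail bud and prostate, reached at most 3 counts.

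HoxD, on chromosome 2 at 74668310 to 74765142, was expressed in its middle and low at both ends. Hoxd8 had 10.5, 13.6 and 14.8 CPM under PGE2 and 11.2, 12.8 and 11.7 CPM under vehicle. Hoxd9 had 2.22, 1.92 and 2.58 CPM under PGE2 and 2.09, 2.89 and 2.38 CPM under vehicle, and both genes overlapped between groups. Hoxd10, which acts in the lumbar spinal cord and the limb, had 0.366, 0.620 and 0.354 CPM under PGE2 and 0.651, 0.757 and 0.347 CPM under vehicle. Per kb, Hoxd10 was at 0.284, against 42.6 for its paralog Hoxc10 and 19.7 for Hoxa10. Hoxd12 was at 0 counts in every library and Hoxd1 had 1 count in vehicle library 3. Hoxd13, which shapes the digits, had 2, 11 and 6 counts under PGE2 and 20, 7 and 10 counts under vehicle, which in CPM put all vehicle libraries above all PGE2 libraries. It did not enter the test, and no fold is given at this depth.

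**Figure D2:**
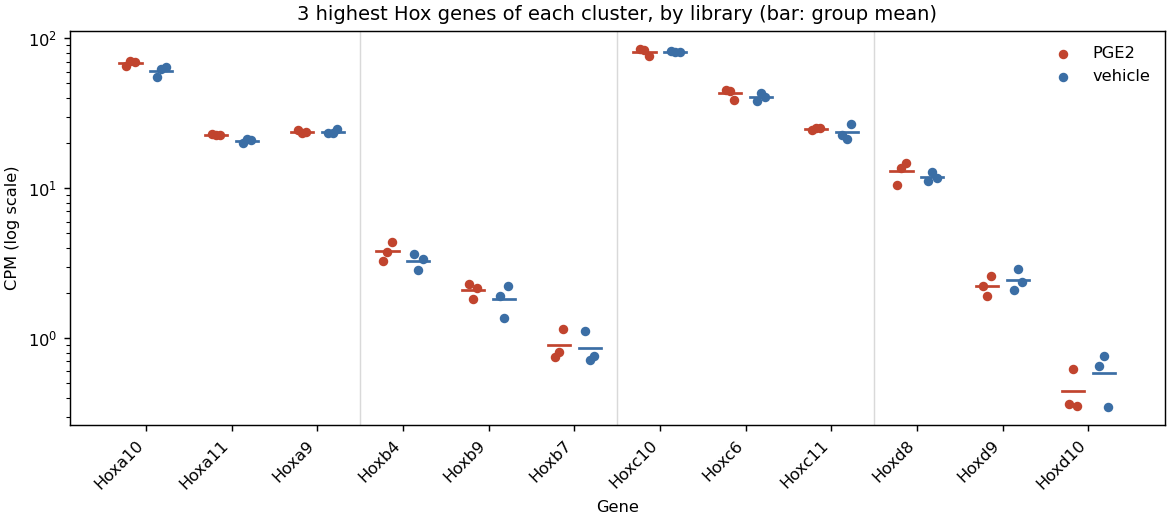
CPM (log axis) of the 3 Hox genes with the highest level per kb in each cluster, PGE2 libraries left and vehicle libraries right of each name, with bars at the group means of 3 libraries. Hoxa10 and Hoxa11 are the genes shown whose PGE2 points all lie above their vehicle points, and Hoxc10 is the highest gene in both groups.

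Ordered by level per kb, the leading genes were Hoxc10 (42.6 CPM per kb), Hoxa10 (19.7), Hoxc6 (17.3), Hoxc11 (12.0), Hoxa11 (9.50), Hoxc9 (8.30) and Hoxc13 (5.86). The ranges of Hoxa10 and Hoxc6 over the 6 libraries overlapped, although Hoxa10 was above Hoxc6 within each of the 6. Per kb of the longest transcript in place of merged exons, Hoxc6 (26.4 CPM per kb) stood above Hoxa10 (25.2) in 5 of 6 libraries, so their order depends on the length used. Hoxc13 and Hoxd8 also overlapped, with Hoxc13 above in 5 of 6 libraries. Of 38 neighbouring pairs in the whole order, 8 had ranges that did not overlap, among them Hoxc10 above Hoxa10 and Hoxc6 above Hoxc11. The leading 3 genes held 51.6% to 53.8% of the summed level. Among all 15186 genes tested, Hoxc10 stood at percentile 91.9 for level per kb, Hoxa10 at 82.7 and Hoxc6 at 80.5. The 9 members that were tested but stayed under 1 CPM in some library had means of 0.230 to 0.893 CPM, and the 7 that were not tested reached at most 20 counts.

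Exons of 16 of the 39 genes share bases with another annotated gene, 10 of them with one on the opposite strand, and whether the counting used strand is not given in the sources used here. The overlap with antisense genes covers 35.0% of the Hoxa11 exons (Hoxa11os) and 52.9% of the Hoxb3 exons (Hoxb3os). On the same strand, 62.3% of the Hoxd3 exons and 52.3% of the Hoxd4 exons are shared, with each other and with Gm28230. Strand does not separate reads there, so the low levels of Hoxd3 and Hoxd4 are uncertain. Hoxc10 shares 8.70% of its exon bases with Hoxc5 on the same strand, and these are 5.37% of the Hoxc5 exon bases. The level of Hoxc5 is therefore uncertain as well. Reads of those stretches cannot be assigned with certainty, which also bears on the levels above.

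No Hox gene passed the test between PGE2 and vehicle. In the comparison of PGE2 with vehicle by edgeR's quasi-likelihood test with Benjamini-Hochberg adjustment over all genes, 0 of 32 tested Hox genes passed a threshold of 0.05, where 0.342% of all 15186 tested genes did, 0.211% higher and 0.132% lower. At an unadjusted p under 0.05 there were 0 of 32 Hox genes by edgeR, by DESeq2 and by limma-voom, against 20.1% of all tested genes by edgeR, 19.1% by DESeq2 and 19.6% by limma-voom. DESeq2 called 0 Hox genes and 7.27% of all genes with an adjusted p, and limma-voom called 0 Hox genes and 0.0856% of all genes. The lowest adjusted p of a Hox gene was 0.291, for Hoxa10.

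The labels state no pairing. Deviations from the group means correlated between same-numbered libraries, at 0.621, 0.169 and 0.422, although PGE2 library 2 was closer to vehicle library 3 (0.252). On these correlations alone, a paired fit, which compares libraries within each number, was run as well. It called 0 of 32 Hox genes and 14.4% of all tested genes (6.91% higher and 7.51% lower), and 2 of 32 had an unadjusted p under 0.05, Hoxa10 and Hoxc13, against 31% of all. Groups that did not overlap were found for 2 of 32 tested Hox genes, Hoxa10 and Hoxa11, or 6.25%, against 25.9% of all tested genes. Both were higher under PGE2, as were 13.7% of all tested genes, and 0 were lower, against 12.2%.

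Fold changes of Hox genes, PGE2 over vehicle, were small. On the log2 scale all 32 lay between -0.33 (Hoxd10) and 0.24 (Hoxb3), within 0.5 of 0, as did 88.4% of all tested genes. The median size of the change without regard to sign was 0.0983 for Hox genes and 0.175 for all tested genes. With sign, the median was 0.015 for Hox genes, 18 above 0 and 14 below, and -0.001 for all genes, of which 49.8% were above 0. By cluster the medians were 0.0018 for HoxA, 0.0393 for HoxB, 0.0031 for HoxC and -0.0353 for HoxD.

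The intervals show what size of change these libraries could have held. For Hoxc10 the log2 fold change was 0.003 ± 0.0685 (SE), with a 95% interval from -0.16 to 0.16, and for Hoxa9 it was 0.002, from -0.17 to 0.17. Hoxa10 was at 0.17 ± 0.0813, from -0.02 to 0.36, with a PGE2 library above its vehicle library in all 3 pairs (edgeR adjusted p = 0.291, paired 0.136), and at 0.097 without vehicle library 1. Hoxa11 was at 0.13, from -0.04 to 0.29, and Hoxc6 at 0.08, from -0.12 to 0.29. Hoxc13 was at -0.22 ± 0.132, from -0.53 to 0.09, and lower under PGE2 in all 3 pairs (edgeR adjusted p = 0.387, paired 0.13). It was at -0.14 without PGE2 library 3 and -0.13 without vehicle library 1. Of the 23 expressed Hox genes, 14 had an interval that lay within 0.5 of 0 and all 23 had one within 1, which is a 2-fold change. Low genes were less well measured: the interval of Hoxd10 ran from -1.26 to 0.60 and that of Hoxa13 from -1.09 to 0.63.

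**Figure D3:**
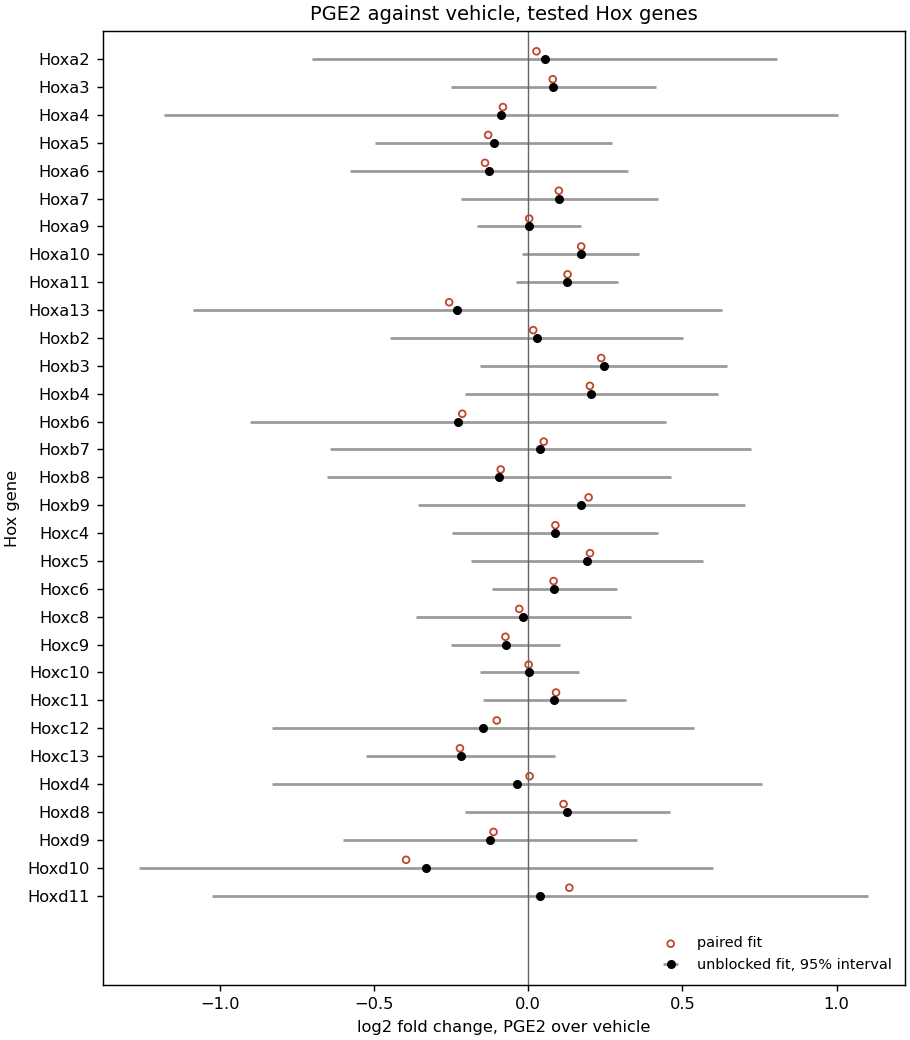
log2 fold change of PGE2 over vehicle for tested Hox genes by cluster, with filled points and 95% intervals from the unblocked edgeR fit and open circles from the paired fit. Every interval includes 0, and the points lie between -0.33 and 0.24.

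A fit that removes any trend of a library's levels with transcript length was also run. It put the Hox median at -0.0743, beside -0.0088 for all genes, and called 0 of 32 Hox genes, against 0.0988% of all genes. With the block as well, 1 of 32 was called, Hoxc13, which fell (log2 fold change -0.29 ± 0.0827, edgeR adjusted p = 0.0292), against 16.8% of all genes, with 7.97% of all genes lower.

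Besides the Hox genes themselves, 44 other annotated genes of the table lie within the 4 clusters, 22 of them microRNAs or short conserved RNA segments. A library of polyadenylated RNA is not made to capture microRNAs. Some of the segments lie within longer noncoding genes, as Gm27861 does within Hotairm1. Reads of any bases they share cannot be assigned with certainty. Of the 44, 3 were above 1 CPM in every library, namely Hoxa11os, Hotairm1 and Hotair. Hotairm1, a noncoding RNA of the HoxA cluster studied in myeloid cells as a regulator of HoxA genes, lies on chromosome 6 at 52156902 to 52162119. It had 3.14, 2.73 and 3.18 CPM in PGE2 libraries 1 to 3, against 1.93, 1.70 and 1.53 CPM in vehicle libraries 1 to 3, so the groups did not overlap. Its log2 fold change was 0.81 ± 0.179 (edgeR adjusted p = 0.102), and it rose in the paired fit (0.82 ± 0.178, adjusted p = 0.0149) and by DESeq2 (adjusted p = 0.0216). It was the 1 of 9 tested genes of this kind that the paired fit called, or 11.1%, beside 14.4% of all genes. Hotair, the HoxC RNA known as a partner of Polycomb in human fibroblasts, had 2.63, 2.60 and 2.15 CPM under PGE2 and 2.21, 3.27 and 3.28 CPM under vehicle, which overlapped. Hoxa11os had 11.0, 9.56 and 8.43 CPM under PGE2 and 8.51, 9.42 and 8.99 CPM under vehicle, which overlapped as well.

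Genes that mark the type of limb were both present. Pitx1, the hindlimb determinant, had 17.7, 24.0 and 23.1 CPM under PGE2 and 13.5, 19.1 and 20.3 CPM under vehicle. Tbx4, the other hindlimb gene, had 3.49, 4.03 and 3.32 CPM under PGE2 and 5.16, 4.40 and 2.96 CPM under vehicle. Tbx5, the forelimb gene, had 2.11, 4.48 and 3.35 CPM under PGE2 and 1.88, 3.74 and 2.89 CPM under vehicle. In each of the 3 genes the groups overlapped. Per kb over all libraries, Pitx1 was at 7.38, Tbx4 at 1.14 and Tbx5 at 0.658. Pitx1 was higher under PGE2 in all 3 pairs and rose in the paired fit (log2 fold change 0.30 ± 0.0875, edgeR adjusted p = 0.0435) but not in the unblocked fit (0.30 ± 0.181, adjusted p = 0.399). Without vehicle library 1, its lowest, the unblocked value was 0.13.

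Other genes of the Hox system were taken from 4 lists with 78 members, of which 65 were tested. In the unblocked fit 0 of 65 passed, with 9 (13.8%) at an unadjusted p under 0.05 by edgeR, 10 (15.4%) by limma-voom and 12 (18.5%) by DESeq2, beside 20.1%, 19.6% and 19.1% of all genes by the same tools. DESeq2 called 1, Gli3, beside 7.27% of all genes with an adjusted p. Limma-voom called 0, beside 0.0856% of all genes, and unblocked edgeR called 0.342% of all genes. The paired fit called 3 higher and 5 lower, 12.3% of the 65, beside 14.4% of all genes.

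Of the Hox cofactors, 8 of 9 were above 1 CPM in every library and 0 of 9 passed in either fit. The highest of them was Pbx2, which binds DNA beside Hox proteins, at 15.6 CPM per kb. Pbx2 had 53.6, 55.75 and 56.1 CPM under PGE2 and 55.84, 61.05 and 58.1 CPM under vehicle, and these groups overlapped (log2 fold change -0.08 ± 0.0658, edgeR adjusted p = 0.53, paired 0.485). The list's median log2 fold change was -0.0923, with 7 of 9 below 0. For all tested genes the median was -0.001, with 49.8% above 0.

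Of 32 regulators of limb and trunk position, 22 were expressed above 1 CPM in every library and 26 were tested. The highest per kb was Tbx15, a T-box gene of skeleton and skin, at 39.3 CPM per kb, followed by the limb mesenchyme gene Prrx1 at 36.5 and Twist1 at 35.7. In the paired fit 2 of 26 rose (7.69%, beside 6.91% of all genes), Pitx1 and Hand2, and 2 of 26 fell (7.69%, beside 7.51%), Gli3 and Tbx18. Hand2, a gene of the posterior limb bud, had 4.59, 7.62 and 4.84 CPM under PGE2 and 3.42, 4.16 and 3.58 CPM under vehicle, which did not overlap (log2 fold change 0.57 ± 0.145, edgeR adjusted p = 0.0275 paired and 0.193 unblocked). Without PGE2 library 2, its highest, the unblocked value of 0.62 became 0.35. Gli3, the Hedgehog pathway factor that opposes Hand2 in the limb bud, had 15.7, 15.9 and 18.4 CPM under PGE2 and 29.4, 30.6 and 21.6 CPM under vehicle. Its groups did not overlap, and the difference was narrowest in pair 3 (log2 fold change -0.70 ± 0.135, edgeR adjusted p = 0.0116 paired and 0.0961 unblocked). Tbx18, a gene of the somites and of cells around vessels, had 32.2, 39.8 and 36.7 CPM under PGE2 and 41.5, 52.0 and 42.4 CPM under vehicle, again without overlap (-0.32 ± 0.0777, edgeR adjusted p = 0.0231 paired and 0.194 unblocked). The summed pericyte markers were 111.6, 73.1 and 61.7 CPM under PGE2 and 152.4, 121.8 and 85.0 CPM under vehicle. These sums were lower in 3 of 3 pairs, as Tbx18 was. The paired fit called 4 of the 8 markers lower, beside 7.51% of all genes. With the length correction added it called 1 of 8 lower, beside 7.97%. The part of these markers' cells in the Tbx18 difference was not tested. The list's median was -0.014.

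Genes of head mesenchyme, where Hox genes are normally off, were mostly low, with 4 of 12 above 1 CPM in every library and 5 tested. The highest per kb was Dlx2, at 3.26 CPM per kb, while Otx2, which marks the front of the head, was at 0 counts in every library. In the paired fit 1 of 5 rose (20%, beside 6.91% of all genes) and 1 of 5 fell (20%, beside 7.51%). The gene that rose was Lhx8 (log2 fold change 0.63 ± 0.147, edgeR adjusted p = 0.0191). Lhx8, a gene of jaw and tooth mesenchyme, had 5.06, 3.20 and 5.14 CPM under PGE2 and 3.02, 2.04 and 3.60 CPM under vehicle, which overlapped.

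Polycomb and trithorax genes, which keep Hox genes silent or active, were all 25 above 1 CPM in every library. None of the 25 passed in the unblocked edgeR fit. Over all tested genes the median log2 fold change was -0.001, with 49.8% above 0. In this list 18 of 25 were below 0, with a median of -0.0985. The highest per kb was Men1, a subunit of trithorax-type complexes, at 18.1 CPM per kb. In the paired fit 2 of 25 fell (8.0%, beside 7.51% of all genes), the PRC2 subunit Aebp2 (-0.25 ± 0.0723, edgeR adjusted p = 0.0415) and the demethylase Kdm6a (-0.29 ± 0.0825, adjusted p = 0.0429). Aebp2 had 77.8, 71.7 and 73.9 CPM under PGE2 and 92.3, 91.5 and 82.9 CPM under vehicle, without overlap. Kdm6a had 21.8, 24.0 and 22.9 CPM under PGE2 and 27.1, 31.1 and 25.8 CPM under vehicle, also without overlap. With the length correction in the paired fit neither passed (edgeR adjusted p = 0.149 for Aebp2 and 0.128 for Kdm6a).

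These paired calls depended on which pair was left out. Without pair 1 the paired fit called 2 of the 64 then tested, Gli3 and Hand2 (3.12%, beside 9.11% of all genes). Without pair 2 it called 3 of 65, Gli3 and Lhx8 among them (4.62%, beside 7.58%), and without pair 3 it called 19 of 65 (29.2%, beside 33.3%). Gli3 was thus called each time, as was Hotairm1, with edgeR adjusted p of 0.0166, 0.00476 and 0.0256 without pairs 1, 2 and 3.

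**Figure D4:**
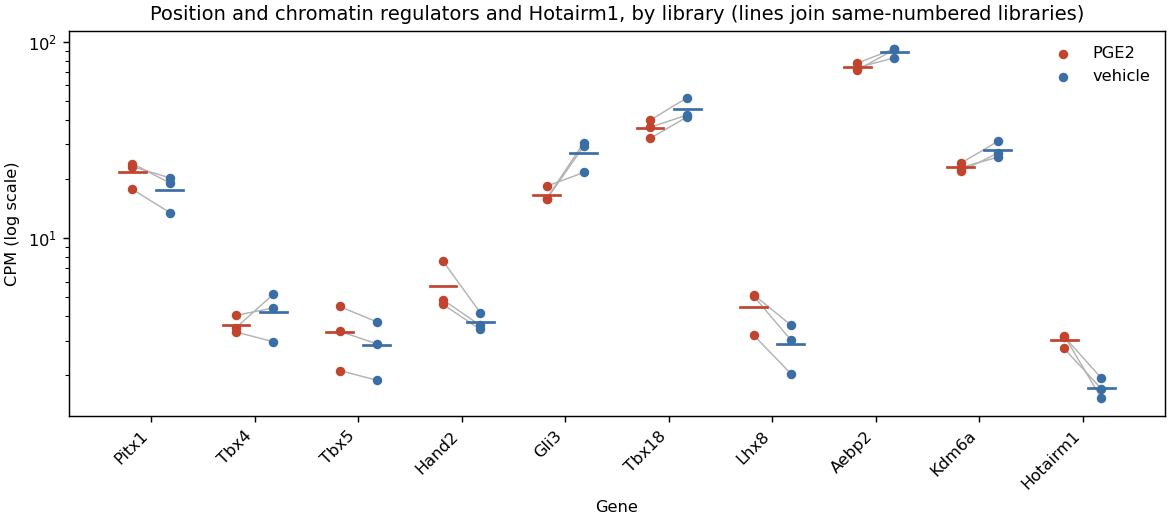
CPM (log axis) of limb and head position genes, Polycomb and trithorax genes and Hotairm1 in each library, PGE2 left and vehicle right of each name, with lines joining same-numbered libraries and bars at group means. Gli3, Tbx18, Aebp2 and Kdm6a lie lower and Hand2 and Hotairm1 higher in every PGE2 library than in any vehicle library, whereas Tbx4 and Tbx5 overlap.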

How the data were processed

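The authors deposited 1 table of whole-number counts per gene, raw and not normalized, for 6 libraries. Per the submitters' processing notes the build was mm10. How reads were aligned and counted is not given in the sources used here. RNA was polyadenylated, purified on silica columns and read as paired ends of 100 bases, per the labels' protocols. Counts were scaled to CPM by trimmed mean of M values. Genes kept by filterByExpr entered edgeR (version 4.0.16, R version 4.3.3), by a robust quasi-likelihood test of PGE2 against vehicle on all 6 libraries, with Benjamini-Hochberg adjustment over all genes tested. Standard errors of the edgeR fits were derived as the size of the log2 fold change over the square root of the test's F statistic. Intervals are 95% intervals from these errors and a t distribution. Alternatives used DESeq2 version 1.42.0, limma-voom (limma version 3.58.1), other scalings and filters, a lowess length correction with a span of 0.3, and each library left out.

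Deviations from the group means correlated at 0.621, 0.169 and 0.422 between same-numbered libraries. All were over 0.1, so the numbers were treated as pairs. The labels do not state this pairing, and the closest match of PGE2 library 2 was vehicle library 3 (0.252). Within a group, chi-square per degree of freedom between libraries was 19.3 to 93.1, and each library was counted as its own sample. Positions and lengths came from GENCODE release M21 for GRCm38, which is mm10 and held 97.3% of the identifiers. Among tested genes, 99.4% had a length. Homeoboxes were located by the codons of the recognition helix in the annotated coding transcripts. Members and lists were chosen with earlier results of these data known. The named genes were the 3 highest of each cluster per kb, any called member, and Pitx1, Tbx4 and Tbx5. Of other lists they were called members and the highest per kb. Hoxc13, Hoxd13 and other Hox genes named besides, Prrx1, Twist1 and Otx2 were named as examples after their values were seen. A few genes that enter the counts are not reported here by name.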

Additional observations from a re-analysis of the deposited data

How the results depend on the processing

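The count of Hox genes past the test was 0 in all settings planned from the start except the replicate block with length correction, which called 1 (Hoxc13). The replicate block without replicate 3, added after seeing the data, called 2, Hoxa10 (higher) and Hoxd13 (lower), where it called 33.3% of all genes. Hoxd13 had only 2 and 11 counts in PGE2 libraries 1 and 2 and 20 and 7 in vehicle libraries 1 and 2. Leaving out any 1 library gave 0 to 0. The number expressed stayed at 23 whichever library was left out. Over all genes the count of 52 became 932 by DESeq2, 13 by limma-voom, 285 with no filter, 15 with the length correction, 2189 with the replicate block, 2549 with both, and 0 at a threshold of 0.01. With the replicate block it was 1372, 1160 and 5097 without replicate 1, 2 and 3, and with 1 library left out of the unblocked fit it was 0 to 120, with 120 without PGE2 library 1, 30 without vehicle library 1 and 0 without any of the other 4. In the 4 lists the count of 0 became 1 by DESeq2 and with no filter, 8 with the replicate block with or without the length correction, and 2, 3 and 19 with the block and without replicate 1, 2 and 3. Leaving out 1 library gave 0 to 0. The Hox median of 0.015 became 0.0521 with a filter of 1 CPM in 3 libraries, -0.0743 with the length correction, -0.0698 with that and the block, -0.0286 by library totals and 0.0392 with the block without replicate 1, and -0.0107 to 0.0557 with 1 library left out. The share of groups 9 to 13, a mean of 71.6%, was 70.7% by CPM not divided by length, 67.5% per kb of the longest transcript, and 71.4% to 71.7% with 1 library left out.

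No named gene that changed sign was called. Scaling by library totals alone moved the median of all genes to -0.0435, which is larger in size than each negative value it gave here. Hoxc10 was at -0.0038 by DESeq2, -0.038 by library totals, -0.10 with the length correction with or without the block, and -0.019 and -0.024 with the block without replicates 1 and 2. Hoxa9 was at -0.0061 by DESeq2, -0.0019 by limma-voom, -0.00102 with no filter, -0.0399 by library totals, -0.012 with the length correction, -0.0105 with that and the block, and -0.036 with the block without replicate 1. Hoxb7 was at -0.11 with the length correction, -0.10 with that and the block, -0.0078 by library totals, and -0.0051 and -0.25 with the block without replicates 2 and 3. Hoxc6 was at -0.048 with the length correction with or without the block, and -0.0095 with the block without replicate 1. Hoxc11 was at -0.0095 with the length correction and -0.0068 with that and the block. Hoxd8 was at -0.011 with the block without replicate 3, Hoxd9 at 0.10 without replicate 2 and Tbx4 at 0.019 without replicate 1. With 1 library left out, Hoxc10 ran from -0.0257 to 0.052, Hoxa9 from -0.0228 to 0.0298, Hoxb7 from -0.15 to 0.27 and Tbx5 from -0.0448 to 0.49. The cause was not tested. Vehicle library 2, the shallowest, had 21006044 counts, which limits genes near 3 counts.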
